A study of Mus musculus with 4 samples.

Results

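The share of transcripts that came from ribosomal genes (deposited as percent.ribo) was followed across 7271 spots in 4 sections of mouse draining lymph node, which are all the spots of the deposited table. The sections, named A, B, C and D, held 1650, 1876, 1858 and 1887 spots. No spot was chosen by its value: the share was read in every spot and set against the 8 regions that the authors named and against position on the array. A spot is a small capture area that can hold several cells, so a level here belongs to a region and not to a cell type.

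All sections form 1 group, with no untreated node for comparison. Per the series' design text, the mice had been immunized for 14 days and gavaged since 3 days when nodes were taken, and sections of 10 µm cut 50 µm apart were placed on a Visium slide, a glass slide on which barcoded spots capture RNA from the tissue above. The labels read here do not name the antigen, the gavaged agent, the strain or the age; the section names in the spot table carry the tag eYFP, which is not explained there. The sections share 1 sample ID stem, so the spread between them may be technical and says nothing of the spread between animals.

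Ribosomal protein genes encode the structural proteins of the ribosome, and their messengers are among the most abundant of most cells. A lymph node is divided into compartments of unlike cells: B cell follicles and the T zone hold mostly small resting lymphocytes, the germinal centre dark zone (DZ) holds dividing B cells, the light zone (LZ) holds B cells under selection by antigen and helper T cells, and the medulla holds plasma cells, macrophages and stroma. The genes counted as ribosomal and as mitochondrial are known only by the column names, and the gene lists behind the 2 scores used below were not described by the labels. By their names, pc_markers scores plasma cell genes, and Mo_GC_vs_Mem sets germinal centre against memory genes.

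A UMI, or unique molecular identifier, marks 1 captured transcript molecule. Their total ran from 8016778 in section D to 20518149 in section B, and single spots held 29 to 36367. The deposited percentage multiplied by the UMIs of the spot gave a whole number in all 7271 spots (tolerance 1e-06), so the ribosomal counts behind it were known. Pooled over spots, the ribosomal part of all UMIs was 24.3% for section A (exact 95% binomial interval 24.3 to 24.4%) and 21.9% for B (21.9 to 22.0%). For sections C and D it was 20.7% (20.6 to 20.7%) and 20.2% (20.1 to 20.2%). Such intervals cover counting error only. Section A was highest although section B was deeper. Median UMIs per spot were 7726.5 in A and 10528 in B, against 3677.5 in C and 3836 in D. The 2 deeper sections thus had the higher shares, and the part of depth in this was not tested. The region names matched the 2 scores: Mo_GC_vs_Mem was highest in DZ (0.265 ± 0.0121, SD, n = 4) and LZ (0.259 ± 0.0110), and pc_markers in GC_Medulla Border (0.308 ± 0.0608) and Medulla (0.279 ± 0.0631). The regions follow expression clusters of the same counts, so this match is not an independent check. DZ and LZ also had the most UMIs per spot, and the part of depth in the scores was not tested.

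The ribosomal share formed broad, smooth fields in the tissue. Over spots, the means of sections A to D were 23.3, 21.3, 19.8 and 19.5%, and the middle 90% of spots lay between 14.6 and 29.5% in A and between 12.6 and 24.3% in D. A spot's share followed the mean of its adjacent spots with a Spearman rho of 0.915, 0.946, 0.895 and 0.902 in A to D, over all spots of each section. With region means removed and only neighbours of the same region used, rho was still 0.725 ± 0.0334 (n = 4 sections, at least 1611 spots each). Adjacent spots share library and tissue, so these values are descriptions without a test. Counting error was small against this: the SD over spots was 4.08 ± 0.569 percentage points, while the SD that counting alone gives was 0.654 ± 0.147.

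**Figure D1:**
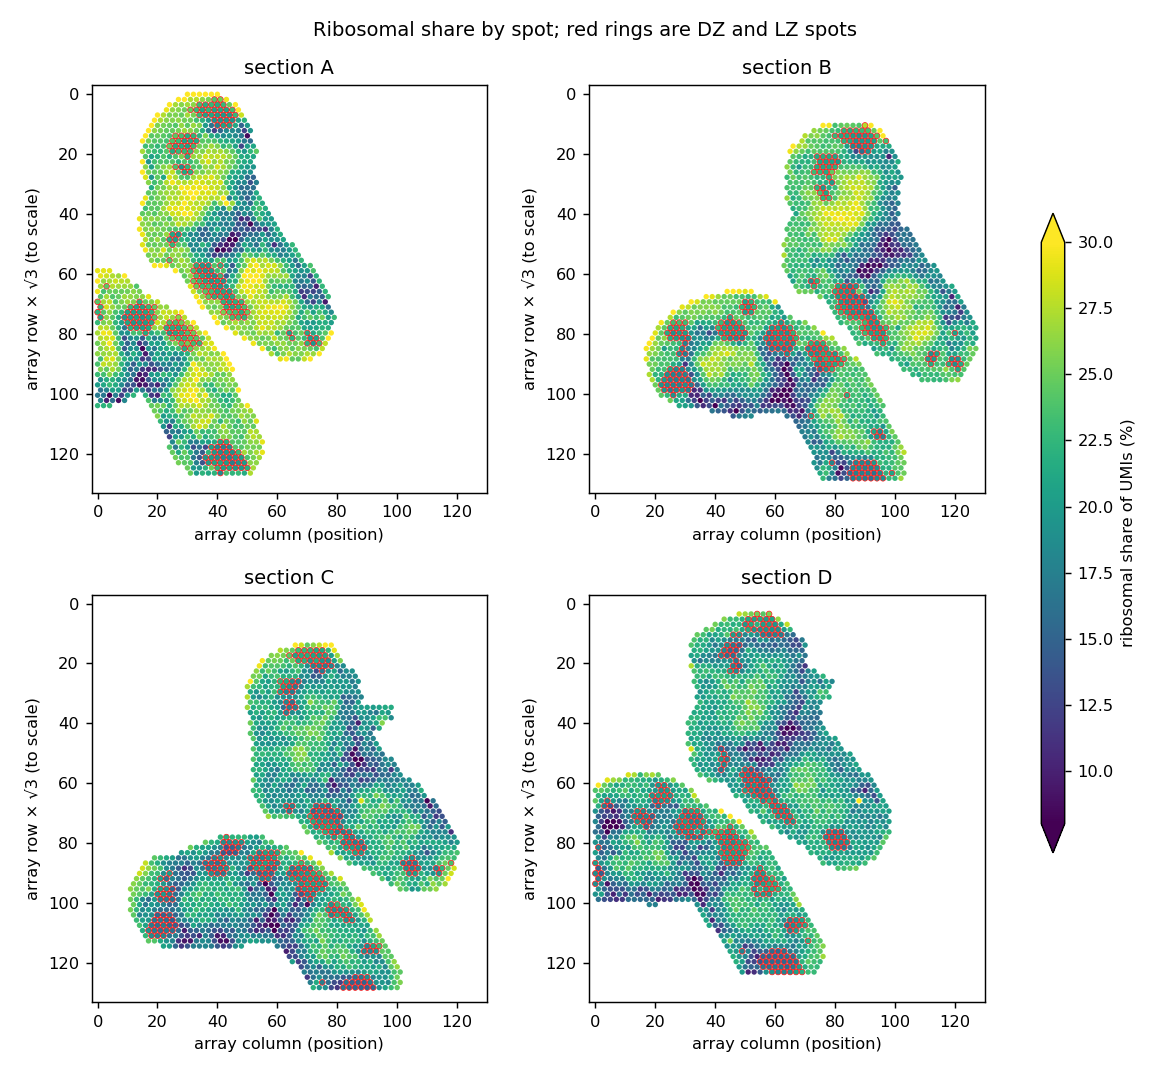
Each panel shows 1 section, with spots at their array column and row (drawn to scale) and coloured by the ribosomal share of UMIs in percent. Red rings mark DZ and LZ spots; the lowest shares form dark tracts in the medulla, and the highest lie inside the T zone and along the outer rim of the B cell side.

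In the mean of 4 sections, B zone and T zone had the highest ribosomal share, the germinal centres lay in between, and the medulla had the lowest. B zone spots averaged 26.5, 24.1, 22.4 and 22.0% in sections A to D, a mean of 23.8% ± 2.01 (SD, n = 4). T zone spots averaged 26.3, 24.9, 21.9 and 21.8%, a mean of 23.7% ± 2.25. Medulla spots averaged 18.5, 16.1, 17.0 and 16.7%, a mean of 17.1% ± 1.03. In every section both lymphocyte zones stood well above the medulla, and the gap between the top and the bottom region was 7.94, 8.82, 5.87 and 5.34 percentage points.

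The border regions, whose spots all lay 1 step from DZ or LZ, took mean levels between those of the zones and the medulla. In section C, GC_Medulla Border lay below Medulla. GC_B Border averaged 25.5, 23.2, 21.5 and 20.9% in sections A to D (22.8% ± 2.05) and GC_T Border 25.1, 23.1, 19.7 and 19.8% (22.0% ± 2.62). GC_Medulla Border averaged 19.0, 17.4, 16.6 and 17.2% (17.5% ± 1.02). LZ averaged 22.8, 20.97, 20.0 and 19.6% (20.8% ± 1.42) and DZ 20.7, 19.3, 17.6 and 17.9% (18.9% ± 1.44). The 2 germinal centre zones therefore did not share a level, although all 539 DZ and 414 LZ spots fell in 1 expression cluster at the finer resolution deposited.

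**Figure D2:**
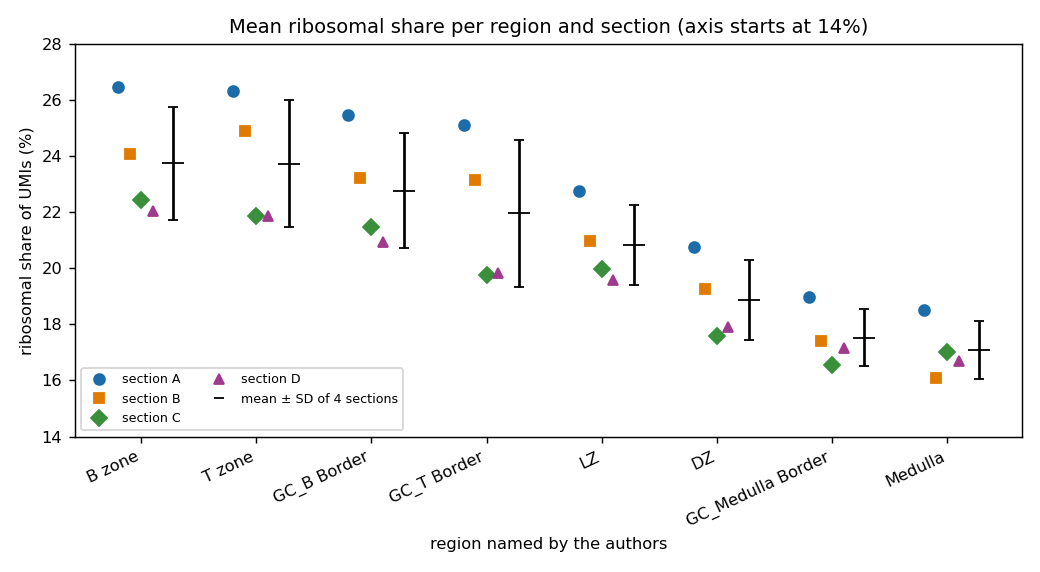
Points give the mean ribosomal share of UMIs (percent) of each region in sections A to D, with mean ± SD over the 4 sections as black bars, regions in order of their mean. The order runs from B zone at 23.8% to Medulla at 17.1%, and section A is highest in every region.

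The order was nearly the same in the 4 sections, with 3 swaps between neighbours. B zone and T zone differed by 0.0152 ± 0.582 percentage points, with B zone higher in 3 of 4 sections, so these 2 could not be ordered. The excess of GC_T Border over LZ was 1.14 ± 1.31, with 3 of 4 sections above 0. It was 2.34 and 2.18 in sections A and B, and -0.235 and 0.266 in C and D. The excess of GC_Medulla Border over Medulla was 0.451 ± 0.738, also with 3 of 4. The other 4 steps of the order held in all sections: T zone over GC_B Border by 0.965 ± 0.534, GC_B Border over GC_T Border by 0.808 ± 0.737, LZ over DZ by 1.95 ± 0.337 and DZ over GC_Medulla Border by 1.35 ± 0.542. Because the regions follow expression clusters made from the same counts, no test is given for differences between regions.

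Depth and ribosomal share ran in parallel across some regions but not all. Over all spots of a section, rho of the share with UMIs was 0.482, 0.346, 0.411 and 0.398 in A to D. Medulla and GC_Medulla Border had the fewest UMIs per spot (4305 ± 2458 and 4686 ± 2598) and the lowest shares. LZ and DZ had the most UMIs per spot (11476 ± 4927 and 10446 ± 4296) yet stood below B zone and T zone (8671 ± 3412 and 6697 ± 3536 UMIs) in ribosomal share. Against all other spots of a section, DZ was lower by a difference of -2.27 ± 0.422 percentage points and Medulla by -5.47 ± 1.62, each below 0 in 4 of 4 sections. B zone differed by 3.38 ± 0.417 and T zone by 3.70 ± 0.961, above 0 in 4 of 4. A linear fit of the share on log10 UMIs was then removed in each section. It was made over all regions, so its slope takes in differences between regions such as the low depth and share of Medulla. After it the DZ difference was -3.58 and the Medulla difference -3.70, at like distance below the rest. LZ differed by -0.160 ± 0.346, below 0 in 2 of 4 sections, and by -1.74 after the fit on log10 UMIs, below 0 in 4 of 4.

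Spots of 1 region still differed among themselves. Of the variance over spots, 57.3, 64.7, 41.7 and 44.1% lay between regions in sections A to D, and the rest within them. Medulla was the most varied region, with an SD over spots of 3.79 ± 0.269 percentage points or 22.2% ± 0.955 of its mean. DZ, LZ and GC_T Border were the most even, with SDs of 1.57 ± 0.206, 1.57 ± 0.0842 and 1.60 ± 0.0750, or 8.39, 7.57 and 7.38% of their means. Counting error gives 0.778 ± 0.208 in Medulla, the region with the fewest UMIs, and 0.447 ± 0.0865 in DZ, so the spread over spots was larger than counting error in both.

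The dark zone lay below the light zone in every germinal centre large enough to compare. The DZ minus LZ difference was -2.02, -1.71, -2.40 and -1.67 percentage points in sections A to D. Connected groups of DZ and LZ spots numbered 70 over the 4 sections, and 26 of them held at least 5 spots of each zone. DZ was lower in 26 of these 26, by differences from -3.09 to -0.248 percentage points. DZ levels ranged from 16.0 to 22.0% and LZ levels from 17.3 to 24.0% over these groups, so a light zone in one germinal centre could lie below a dark zone in another. The same germinal centre may recur in several sections, and the groups are not independent. Mean differences within germinal centres were -1.58 ± 0.418. DZ also had the lower mitochondrial share, 3.26% ± 0.552 against 4.47% ± 0.395 in LZ. Its UMI difference from LZ was -1031 ± 688. Both differences were below 0 in 4 of 4 sections. After the fit on log10 UMIs, which was made over all regions, the DZ minus LZ difference of the ribosomal share was -1.67. As a share of the counts that were not mitochondrial it was -2.29. The part of depth and of the mitochondrial share in the difference was not tested.

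Within the light zone the rim had a somewhat higher ribosomal share than the interior. LZ spots with a neighbour outside the germinal centre averaged 22.8, 21.3, 20.1 and 19.7% in sections A to D, against 22.4, 20.0, 19.6 and 19.0% in inner LZ spots. The difference was 0.676 ± 0.392 percentage points (332 rim and 82 inner spots), above 0 in 4 of 4 sections (exact two-sided sign-flip permutation p = 0.12, adjusted over 2 zones 0.25). That p is 2 of 16 sign assignments, the smallest that 4 sections allow, so no comparison here can pass 0.05. For DZ the same difference was 0.264 ± 0.430 and above 0 in 2 of 4 sections (exact sign-flip permutation p = 0.5). It was 0.652 and 0.619 in sections A and B, the deeper ones, and -0.140 and -0.0757 in C and D. DZ rim spots held fewer UMIs, a difference of -2589 ± 1022 from inner spots. With the linear fit on log10 UMIs removed, the rim difference was 0.903 ± 0.426 in DZ and 0.848 ± 0.367 in LZ. Both were above 0 in 4 of 4 sections. That fit was made over all regions, with slopes of 5.03 to 6.83 percentage points per log10 UMIs. Of 4 groups of DZ spots ranked by UMIs, the highest (16201 UMIs) lay above the lowest (5581) by 1.41 ± 0.504. That rise is smaller than the fit takes off over such a range, so the fit may overcorrect the DZ rim. A fit within DZ was not made, and the part of depth was not tested. Without section A or B the unadjusted DZ value was 0.135 or 0.145, and without C it was 0.398. With medians over spots the DZ difference was 0.316, above 0 in 4 of 4 sections.

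The dark zone rim differed by what it touched. DZ spots touching GC_T Border but not GC_Medulla Border (98 spots) averaged 21.7, 20.8, 17.9 and 18.2% in sections A to D. DZ spots touching GC_Medulla Border (173 spots) averaged 20.7, 18.6, 17.2 and 17.5%, and those touching only GC_B Border (93 spots) averaged 21.02, 19.8, 17.8 and 18.9%. DZ spots touching no border region (175 spots) averaged 20.4, 18.8, 17.7 and 18.0%. The order of the sides followed that of the zones outside, except that the T and B sides were close (0.268 ± 0.780, T side higher in 3 of 4 sections). The T side lay above the medulla side by 1.18 ± 0.726 percentage points in 4 of 4 sections and above the interior by 0.921 ± 0.868 in 4 of 4. The B side lay above the interior by 0.653 ± 0.415 in 4 of 4, and the medulla side differed from the interior by -0.255 ± 0.382, above it in 1 of 4. Depth differed between the sides as well. UMIs per DZ spot were 7761 on the medulla side, 10902 on the T side, 11216 on the B side and 12158 in the interior. The part of depth in the differences between sides was not tested. The split by side was chosen after first looks at the data and carries no test.

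Of the 3 border regions, 2 had a lower ribosomal share than the zone behind them. Most spots of a border share an expression cluster with that zone, and the border differs from it by position, so here a test was made. GC_T Border differed from T zone by -1.23, -1.75, -2.11 and -2.0 percentage points in sections A to D, a mean of -1.77 ± 0.392. GC_B Border differed from B zone by -0.972, -0.879, -0.961 and -1.11, a mean of -0.980 ± 0.0947. Both were below 0 in 4 of 4 sections (exact sign-flip permutation p = 0.12, adjusted over 3 borders 0.188). Against T zone spots at only 2 steps the T side difference was -0.760. The B side difference was -0.634 with medians, -0.604 in the upper piece of tissue and -0.479 with tissue-edge spots left out; 38.9% of B zone spots and 15.3% of GC_B Border spots lay at the tissue edge.

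The border toward the medulla was not lower in this way. GC_Medulla Border differed from Medulla by 0.449, 1.34, -0.465 and 0.476 percentage points in sections A to D (0.451 ± 0.738, exact p = 0.375, adjusted 0.375). Every section held 2 separate pieces of tissue, called upper and lower by mean array row, and Medulla was higher in the upper piece by 1.56 ± 0.993 percentage points in 4 of 4 sections. Within the pieces the border difference was larger, 0.882 ± 1.14 in the upper and 0.997 ± 0.513 in the lower, above 0 in 4 of 4 sections in each. It was smaller with the linear fit on log10 UMIs removed (0.163, above 0 in 2 of 4 sections), as a share of summed counts (0.160, 2 of 4) and as a share of the counts that were not mitochondrial (0.135, 3 of 4). With tissue-edge spots left out it was 0.732 and with medians 0.680; without section B it was 0.153 and without section C 0.756. Against only those Medulla spots that lay 2 steps from a germinal centre it was -0.0162.

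Moving from the germinal centre into the T zone, the ribosomal share was lowest beside the germinal centre in 3 of 4 sections and highest some steps further in. A step is the distance to an adjacent spot on the hexagonal array. On the T zone side the means of the 4 sections were 22.0% ± 2.62 at 1 step from DZ or LZ, 22.7% ± 2.39 at 2, 23.6% ± 2.39 at 3, 24.3% ± 2.56 at 4, 24.5% ± 2.58 at 5, 24.4% ± 2.39 at 6 and 23.5% ± 1.74 at 7 to 9 steps. The highest bin was 27.4% at 5 steps in section A, 25.9% at 6 in B, 22.3% at 4 in C and 22.6% at 6 in D. In all sections it thus lay at 4 to 6 steps. UMIs per spot showed no like course, with 7250 ± 3624 at 1 step and 6578 ± 3576 at 5 steps, while pc_markers was 0.228 ± 0.0188 at 1 step and 0.198 ± 0.0221 at 5.

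On the B zone side the course was shorter and flatter. The means were 22.8% ± 2.05 at 1 step, 23.8% ± 2.26 at 2, 23.7% ± 2.03 at 3, 23.8% ± 1.47 at 4 and 24.6% ± 2.04 at 5. Beyond that they were 23.3% ± 2.63 at 6 steps and 23.2% ± 2.17 at 7 to 9. The share of tissue-edge spots moved with distance, from 15.1% at 1 step to 61.2% at 5 steps. Without edge spots the means were 22.3% at 1 step, 23.1% at 2 and 22.2% at 5, and the high point at 5 steps was gone.

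On the medulla side the sections differed in where the highest and the lowest levels lay. The means were 17.5% ± 1.02 at 1 step, 17.5% ± 1.53 at 2, 16.9% ± 1.37 at 3, 16.9% ± 0.794 at 4, 17.2% ± 1.37 at 5, 17.1% ± 1.12 at 6, 16.5% ± 0.811 at 7 to 9 and 17.3% ± 1.20 at 10 to 14 steps. Edge spots made up 0.391% of spots at 1 step and 24.3% at 10 to 14 steps; without them the means were 17.5% at 1 step, 17.2% at 2, 16.7% at 3, 16.2% at 7 to 9 and 16.9% at 10 to 14. The spots at 1 to 4 steps minus those at 10 or more steps gave -0.106 ± 0.626 percentage points, above 0 in 1 of 4 sections (exact p = 0.625). That value was 0.159 without section D and -0.350 without section B, and within the upper and the lower piece it was 0.322 and 0.801. Over the same distance pc_markers was lower by 0.0535 ± 0.00956 in the far spots and the mitochondrial share was higher there, 6.96% ± 0.589 against 4.48% ± 0.626 near germinal centres. The same near against far comparison was not possible for the T and B sides, which held too few spots at 10 or more steps. With near as 1 to 3 and far as 6 or more steps, the T side differed by -0.815 ± 0.612 (exact p = 0.25) and the B side by 0.0967 ± 0.317 (exact p = 0.875).

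Spots at the tissue edge had a higher ribosomal share than inner spots of the same region. Edge spots have at least 1 adjacent position outside the marked tissue, and they numbered 926, of which 504 were in B zone, 309 in Medulla, 102 in GC_B Border and 8 in LZ, while T zone had 2, GC_Medulla Border 1, and DZ and GC_T Border 0. In B zone, edge spots averaged 28.2, 25.3, 24.4 and 23.1% in sections A to D, against 25.2, 23.3, 21.2 and 21.1% inside. In GC_B Border they averaged 28.3, 24.8, 24.3 and 23.3% against 24.8, 22.9, 20.9 and 20.7%. In Medulla they averaged 20.6, 17.4, 18.7 and 18.6% against 18.1, 15.8, 16.7 and 16.4%. The edge was thus higher in all 4 sections in each of these regions.

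The edge differences were 2.50 ± 0.662 percentage points in B zone, 2.87 ± 0.772 in GC_B Border and 2.09 ± 0.358 in Medulla, each above 0 in 4 of 4 sections (exact sign-flip permutation p = 0.12, adjusted over 3 regions 0.12). In the lower piece the Medulla difference was 1.29. With the second spot counted as edge the difference was 0.961 in Medulla, 1.73 in GC_B Border and 2.01 in B zone. The elevation was narrow in Medulla, while in B zone and GC_B Border the mean was lower at each further step. In B zone the mean was 25.2% ± 2.15 at the edge, 23.2% ± 1.80 at the second spot, 22.6% ± 2.22 at the third and 22.1% ± 2.06 at 4 or more steps. In Medulla it was 18.8% ± 1.32 at the edge and then 16.6% ± 0.987, 16.7% ± 1.03 and 16.8% ± 1.02, so only the outermost spots stood out there.

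Edge spots also held more UMIs and a higher mitochondrial share. In B zone UMIs were 10241 ± 3528 at the edge and 7586 ± 3334 inside, and in Medulla 5019 ± 2473 and 4158 ± 2410. The mitochondrial share was 6.18% ± 0.244 at the edge and 4.62% ± 0.639 inside B zone, and 7.20% ± 0.596 and 5.29% ± 0.612 in Medulla. The part of depth was looked at by matching edge and inner spots on quartiles of UMIs: the differences were then 1.96 ± 0.586 in B zone, 2.30 ± 0.559 in GC_B Border and 1.97 ± 0.402 in Medulla, above 0 in 4 of 4 sections each. With the linear fit on log10 UMIs removed they were 1.63, 1.97 and 1.38. The mitochondrial and the ribosomal share moved together at the edge, and what they share was not tested.

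**Figure D3:**
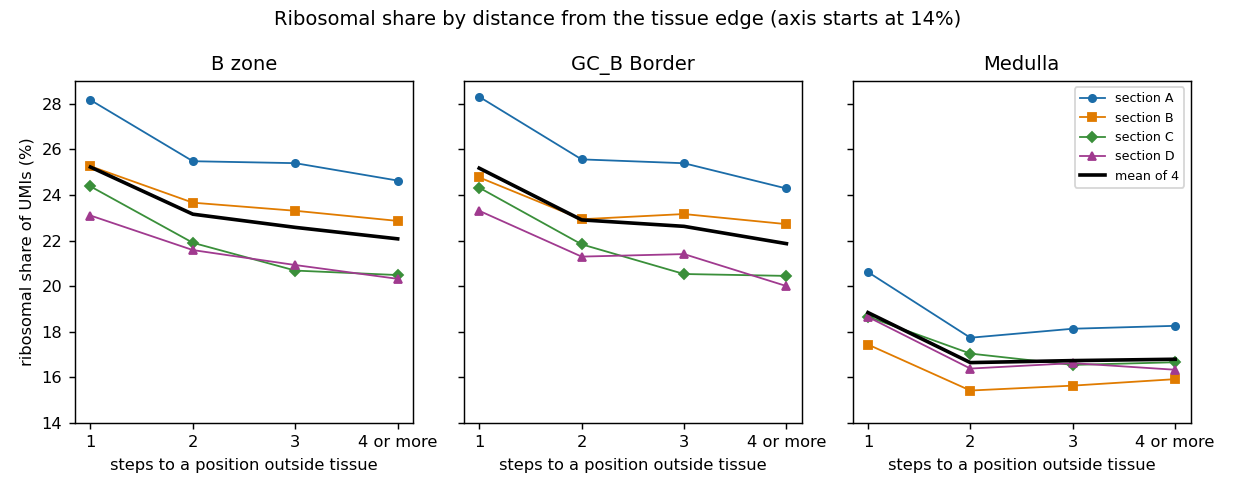
Lines give the mean ribosomal share of UMIs (percent) by steps to a position outside the tissue, for sections A to D and their mean in black, in B zone, GC_B Border and Medulla. Step 1 is the edge itself; in Medulla the mean is 18.8% at the edge and 16.6% at the next spot, while in B zone it goes from 25.2% at the edge to 22.1% at 4 or more steps.

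Inside the medulla the ribosomal share was lowest where the plasma cell marker score was highest. Spearman's rho between them over Medulla spots was -0.680, -0.738, -0.491 and -0.634 in sections A to D (-0.636 ± 0.105, 2130 spots in all), and in GC_Medulla Border it was -0.642 ± 0.131 (235 spots). The spots of each region and section were ranked by pc_markers and cut into 4 groups of like size. In Medulla, the group with the lowest scores had a ribosomal share of 21.2, 19.1, 18.9 and 18.9% in sections A to D, and the group with the highest scores 13.8, 11.7, 13.8 and 12.9%. The section means of the 2 groups did not overlap, and their difference was -6.47 ± 1.14 percentage points. In GC_Medulla Border the highest group differed from the lowest by -5.24 ± 1.22. Both measures come from the same UMIs of the same spots, so this is a description with no p.

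In the group with the highest scores the other counts behind the share were higher in 4 of 4 sections, while the ribosomal counts of Medulla had a mixed direction. In the lowest and the highest pc_markers group, ribosomal UMIs per Medulla spot were 721 ± 471 and 637 ± 285, a difference of -84.2 ± 206 that was above 0 in 1 of 4 sections (-18.7, -370, 119 and -66.8 in A to D). All other UMIs were 2907 ± 1938 and 4440 ± 2418, a difference of 1534 ± 623 above 0 in 4 of 4 sections. In section B, where both counts moved most, ribosomal UMIs were 1393 and 1023 and other UMIs 5724 and 7851. In GC_Medulla Border the ribosomal UMIs were higher in the top group by 125 ± 71.4 and the other UMIs by 2229 ± 543, both in 4 of 4 sections. The mitochondrial share was lower in the top group as well, with differences of -1.66 ± 0.298 percentage points in Medulla and -1.75 ± 0.848 in GC_Medulla Border. With UMIs held constant by a partial correlation, rho in Medulla was -0.710 ± 0.0597.

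**Figure D4:**
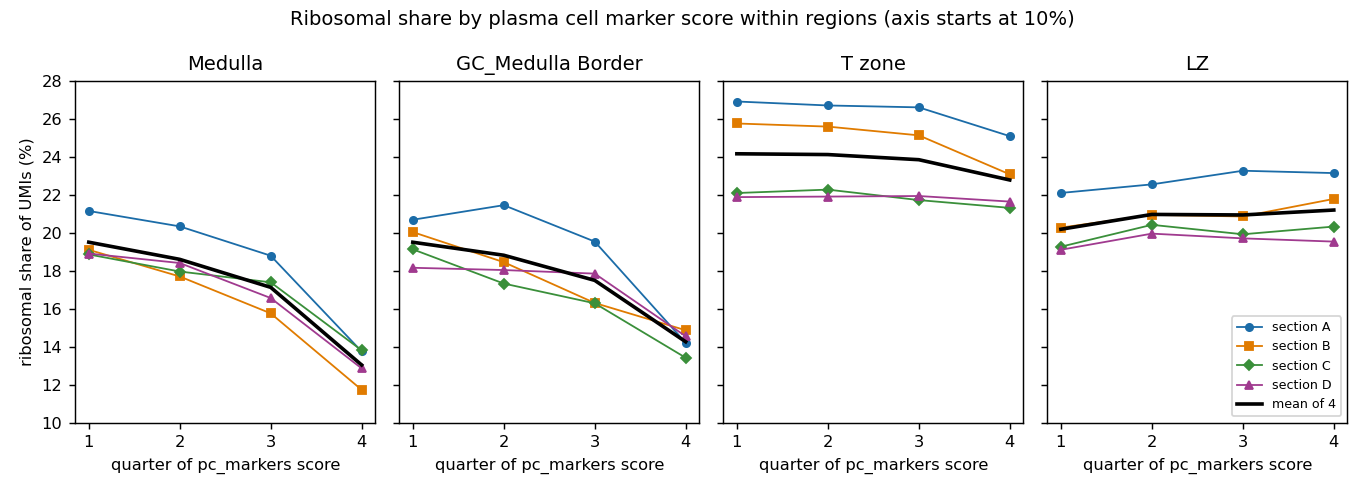
Lines give the mean ribosomal share of UMIs (percent) in the 4 groups of spots ranked by the pc_markers score within a region and section, for sections A to D and their mean in black. In Medulla the mean goes from 19.5% in the lowest to 13.0% in the highest group, with the largest step between the third and the fourth, while in LZ it goes from 20.2 to 21.2%.

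Outside the medulla the relation to pc_markers was weaker or absent. In T zone rho was -0.244 ± 0.144 and below 0 in 4 of 4 sections, with a top minus bottom group difference of -1.38 ± 1.09 percentage points. In GC_B Border it was -0.124 ± 0.141, with sections B and D near 0 (-0.0131 and -0.00978), and it turned to 0.0703 ± 0.137 with steps to the tissue edge held constant. In GC_T Border it was -0.214 ± 0.285, in B zone -0.0473 ± 0.107 and in DZ 0.0989 ± 0.199. LZ went the other way, with 0.223 ± 0.137 above 0 in 4 of 4 sections (0.307, 0.367, 0.145 and 0.0723 in A to D) and a group difference of 1.01 ± 0.444. These LZ values rest on 414 spots, and LZ had the lowest mean pc_markers of the 8 regions (0.115 ± 0.0151). With UMIs held constant, rho in LZ was 0.215 ± 0.175, and only 0.000245 in section D. In the lower piece of tissue mean rho in LZ was 0.188, below 0 in 1 of 4 sections.

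Before any adjustment for UMIs, mean rho with the germinal centre score had the opposite sign to that with pc_markers in each region. Only in Medulla and LZ did both scores keep 1 direction in all 4 sections. In Medulla the ribosomal share was higher where Mo_GC_vs_Mem was higher, with rho 0.402 ± 0.146 above 0 in 4 of 4 sections. In LZ rho was -0.262 ± 0.224, below 0 in 4 of 4 though only -0.00747 in section D, which was at 0.0333 without tissue-edge spots, and it stood at -0.599 with UMIs held constant. In DZ it was -0.120 ± 0.186, above 0 in 1 of 4, and -0.450 with UMIs held constant. In B zone, GC_B Border, T zone, GC_T Border and GC_Medulla Border rho ran from 0.0180 to 0.268 with a mixed direction over sections. With UMIs held constant it was below 0 in 4 of 4 sections in B zone (-0.277), T zone (-0.307), GC_B Border (-0.215) and GC_T Border (-0.131) as well, and above 0 in 4 of 4 in Medulla (0.466) and GC_Medulla Border (0.418). In the first 4 of these regions mean rho with pc_markers was then below 0 too, so the scores were not reversed there. It was -0.151 in B zone, -0.310 in T zone, -0.151 in GC_B Border and -0.256 in GC_T Border. Only GC_T Border had a section above 0.

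Spots with more UMIs tended to have a higher ribosomal share in most regions. The rho with UMIs was 0.472 ± 0.185 in GC_B Border, 0.396 ± 0.207 in B zone, 0.320 ± 0.140 in DZ, 0.301 ± 0.197 in LZ, 0.294 ± 0.172 in T zone and 0.222 ± 0.175 in GC_T Border, above 0 in 4 of 4 sections in each. In Medulla it was 0.127 ± 0.129, above 0 in 3 of 4, and in GC_Medulla Border -0.0992 ± 0.166, above 0 in 1 of 4. With the mitochondrial share, rho was 0.494 ± 0.0494 in GC_Medulla Border, 0.464 ± 0.137 in GC_B Border, 0.405 ± 0.197 in B zone, 0.351 ± 0.0825 in Medulla and 0.283 ± 0.130 in LZ, above 0 in 4 of 4 sections each. It was 0.343 ± 0.268 in DZ, 0.187 ± 0.198 in GC_T Border and 0.145 ± 0.20 in T zone, above 0 in 3 of 4 sections each and below 0 in section A. With steps to the tissue edge held constant the B zone value was 0.190, above 0 in 3 of 4 sections, and the GC_B Border value 0.285.

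The extremes of the ribosomal share came from different compartments. The lowest 5% of spots in each section, below 14.6, 12.5, 13.3 and 12.6% in A to D, lay in Medulla for 93.7% ± 1.95 and in GC_Medulla Border for the remaining 6.34% ± 1.95. Their pc_markers mean was 0.429 ± 0.0823 against 0.209 ± 0.0304 over all spots, and the largest connected patch held 33.2% ± 6.50 of them. Of all 7271 spots, 2130 were in Medulla, 235 in GC_Medulla Border, 1294 in B zone and 1834 in T zone. The highest 5% lay in B zone for 44.9% ± 12.2 and in T zone for 43.3% ± 18.1. Tissue-edge spots were 48.6% ± 12.5 of them and 12.7% ± 0.546 of all spots. In section C, T zone made up 23.7% of the highest 5% and a like part of all spots (456 of 1858). The lowest and the highest 5% were chosen by the share itself, so their values are a description.

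Single extreme spots differed in how well they were measured. The lowest spot of the series, a Medulla spot of section B, held 661 ribosomal UMIs among 12856, a share of 5.14% (exact 95% binomial interval 4.77 to 5.54%). The highest, a Medulla spot of section A, held 18 of 44 UMIs, a share of 40.9% with an interval of 26.3 to 56.8%, so its rank rests on few counts. A GC_B Border spot at the tissue edge of section B held 5063 of 14675 UMIs, 34.5% (33.7 to 35.3%). Spots with fewer than 1000 UMIs numbered 134, of which 123 were in Medulla.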

How the data were processed

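RNA was captured in 4 sections on a Visium slide, and all values came from 1 table holding a line for each spot. The submitters' processing notes name mm10, Seurat 4.2.1 and Space Ranger 1.3.1; settings, the gene patterns behind the percentages and the rule that named regions were not described by the labels. The UMI counts per spot are raw counts as deposited. The ribosomal and mitochondrial values are percent of those UMIs as deposited by the authors, and pc_markers and Mo_GC_vs_Mem are score values per spot as deposited, without a true zero. Percentages of different spots are comparable without scaling, but a share falls when other transcripts rise.

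Region names, array rows and columns came from the table, and tissue marks from 4 deposited alignment files. Between 20 and 38 marked positions per section had no line in the table; 63 spots on the array border were left out of edge comparisons. Of the position barcodes, which are printed alike in each capture area, 247 occurred in all 4 sections.

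The section was the unit (n = 4). Means over spots were taken per section, differences are mean ± SD, and position contrasts with at least 5 spots per arm in every section were tested by exact sign-flip permutation, two-sided, over 16 assignments (smallest p 0.12), with Benjamini-Hochberg adjustment per family. Sections are serial, so p-values speak only of these sections and not of animals. Where all 4 differences share a sign, p is 0.12 whatever their spread. The functions were tested on simulated data. Tools were Python 3.11.15, numpy 2.4.6, scipy 1.17.1 and pandas 2.3.3. The measures, regions and contrasts were chosen with earlier results of these data known. By the rule for names, every region and 5 deposited measures are named and no gene, as the table holds none; no marker list was used. Alternatives were a minimum of 1000 UMIs, medians, a fit on log10 UMIs, shares without mitochondrial counts, shares of summed counts, each tissue piece, each section left out, other edges and other distances.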

Additional observations from a re-analysis of the deposited data

Results flagged for a closer look

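Each of 50 results was looked at for a section standing apart, and 1 was found; about 1 in 20 groups of this size would show one by chance. In GC_Medulla Border, rho between the ribosomal share and pc_markers was -0.449 in section D, against -0.722 to -0.677 in the others.

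The relation to the 2 scores pointed in opposite directions in different regions, each with 1 direction in all 4 sections before any adjustment; the differences between regions were not tested. For pc_markers, mean rho was 0.223 in LZ, against -0.124 in GC_B Border, -0.642 in GC_Medulla Border, -0.244 in T zone and -0.636 in Medulla. The GC_B Border value was near 0 in sections B and D (-0.0131 and -0.00978) and turned to 0.0703 given steps to the tissue edge. With UMIs held constant, the LZ value of section D for pc_markers was 0.000245. For Mo_GC_vs_Mem, mean rho was -0.262 in LZ against 0.402 in Medulla. The LZ value of section D was -0.00747, and 0.0333 without tissue-edge spots.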

How the results depend on the processing

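No paired analysis was possible because all sections belong to 1 group and their letters pair no samples between groups; the tests set parts of the same section against each other. Of 18 differences, 13 had 1 direction in all 4 sections, and 0 of these 13 changed direction under any alternative run, leaving out single sections included; of 13 such correlations, 1 did, pc_markers in GC_B Border, at 0.0703 given steps to the tissue edge. Sizes moved by more than the spread between sections as follows, against all other spots. Medians gave -3.03 in DZ, -0.809 in LZ, 1.53 in GC_B Border and 2.73 in B zone. The fit on log10 UMIs gave -3.58 in DZ, -1.74 in LZ, 1.23 in GC_B Border, -2.56 in GC_Medulla Border, 2.46 in B zone and -3.70 in Medulla. Shares of summed counts gave -3.04 in DZ, -0.851 in LZ and -4.61 in GC_Medulla Border. Without mitochondrial counts DZ was at -2.71, and without tissue-edge spots B zone at 2.47. The upper piece gave 2.56 and the lower piece 4.37 for B zone, and for GC_B Border the lower piece gave 2.39. DZ minus LZ within germinal centres was -1.58; this setting and the one given steps to the edge were chosen after seeing the data. Tested position contrasts were rated for a change of direction only, and their sizes moved too. GC_B Border minus B zone ran from -1.42 (lower piece) to -0.479 (no edge spots). GC_T Border minus T zone ran from -2.21 (medians) to -0.760 (T zone at 2 steps). The edge difference of Medulla ran from 0.961 (second spot as edge) to 2.60 (no mitochondrial counts), and that of B zone from 1.63 (fit) to 3.04 (no mitochondrial counts). GC_Medulla Border minus Medulla reversed to -0.0162 against Medulla spots at 2 steps. The medulla side near minus far reversed to 0.322 and 0.801 in the upper and lower piece and to 0.365 with near as 1 to 3 and far as 6 or more steps, and ran from -0.350 to 0.159 with single sections left out. The causes were not tested. Counting error per spot was 0.654 ± 0.147 percentage points in the mean, and the 134 spots under 1000 UMIs are the least precise.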
